A study of Rattus norvegicus with 4 samples.

Results

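Dual-specificity phosphatases of the MAP kinase phosphatase family switch off MAP kinases by removing phosphate from both the threonine and the tyrosine of the activation loop. Several of their genes are themselves induced when a MAP kinase is active, so the enzymes act as negative feedback. Dusp6 (MKP-3) is cytoplasmic and Dusp5 is nuclear, and both act mainly on ERK. Dusp4 (MKP-2) and Dusp1 (MKP-1) are nuclear enzymes of broader reach, and Dusp1 is best known for acting on the stress kinases p38 and JNK and as an immediate early gene. These 4 genes were chosen by their rat Ensembl identifiers, ENSRNOG00000023896 for Dusp6, ENSRNOG00000014061 for Dusp5, ENSRNOG00000011921 for Dusp4 and ENSRNOG00000003977 for Dusp1. All 4 were on the array, with 1 probe each, among 20174 gene probes.

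The cells were Rat-1·RasValA1, a stable rat embryonic fibroblast line with HrasG12V, a permanently active form of the small GTPase Hras, behind a promoter that IPTG switches on. They were kept for 24 h in serum-free medium with 5 mM IPTG and 3 µM ZnCl2, with 5 mM IPTG alone, with 3 µM ZnCl2 alone, or with no addition. Total RNA of each condition was hybridised to 1 single-colour array, 4 arrays in all, so no condition had a replicate. All groups carry the inducible allele, so an effect of IPTG itself cannot be told apart from that of HrasG12V. The probes of Hras, of zinc-responsive genes and of fibroblast markers were not analysed here, so the labels and the cell type were not checked against them. The arrays measure a gene's share of the RNA of a whole culture, where fewer cells that express a gene and less RNA per cell cannot be told apart.

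Dusp5 rose with IPTG and was the member that differed most. In normalized signal, the IPTG and zinc culture stood 3.68-fold above the zinc culture, and the IPTG culture 4.73-fold above that with no addition. Normalized signal includes 50 added units, which makes such folds smaller. In scanner signal above the blank mean, with nothing added and no normalization, the ratios were 5.89 and 7.39. A limma test over the 4 arrays called Dusp5 higher with IPTG, but the call was lost under 3 of 10 other settings. In normalized signal, Dusp1 was 1.73-fold and 1.72-fold higher in the same pairs, which did not pass the test. Dusp6 had 0.880 times and 0.554 times the signal of the paired culture without IPTG and did not pass either. Its direction with zinc was not settled, since that log2 difference was 1.57 when the local background was subtracted. Dusp4 was within a few scanner units of the detection limit on every array. With zinc, the differences of the 3 members detected on all arrays ran from -0.42 to 0.52 on the log2 scale, but that of Dusp6 without IPTG was -2.04 when the local background was subtracted instead of the mean of blank spots.

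The promoter windows of Dusp5, Dusp1 and Dusp6 are shown so that their sequence can be set beside their IPTG differences, of which that of Dusp6 had no settled direction. Each runs from 250 bases before to 50 bases after a start site, on the plus strand, as RefSeq gives it for the rat build GRCr8. Of the 4 members, 3 had such a window, and Dusp4 had no entry. Capitals mark matches, on either strand, to TGACG (core of the cAMP response element), TGANTCA (the AP-1 element), CCGGAAG (an ETS element) and the CArG box of serum response factor.
Dusp5, chr1:262543524-262543823: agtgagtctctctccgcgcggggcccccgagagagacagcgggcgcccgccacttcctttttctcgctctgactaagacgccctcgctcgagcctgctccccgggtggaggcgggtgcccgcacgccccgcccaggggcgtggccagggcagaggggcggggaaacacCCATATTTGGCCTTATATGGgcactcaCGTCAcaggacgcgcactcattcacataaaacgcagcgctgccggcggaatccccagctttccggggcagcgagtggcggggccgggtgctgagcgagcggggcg
Dusp1, chr10:17184603-17184902: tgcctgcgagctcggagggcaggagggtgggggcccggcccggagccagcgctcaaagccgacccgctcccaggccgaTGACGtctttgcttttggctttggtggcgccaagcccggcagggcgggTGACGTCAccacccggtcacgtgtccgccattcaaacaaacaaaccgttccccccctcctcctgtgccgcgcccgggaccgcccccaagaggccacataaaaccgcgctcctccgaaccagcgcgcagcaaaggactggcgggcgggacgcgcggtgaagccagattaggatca
Dusp6, chr7:35979354-35979653: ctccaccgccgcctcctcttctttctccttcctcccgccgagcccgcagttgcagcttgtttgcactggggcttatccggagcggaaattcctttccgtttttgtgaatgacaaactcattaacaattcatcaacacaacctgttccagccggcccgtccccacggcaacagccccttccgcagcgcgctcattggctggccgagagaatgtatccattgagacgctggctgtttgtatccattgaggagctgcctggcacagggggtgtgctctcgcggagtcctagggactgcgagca
The Dusp5 window holds 2 adjoining CArG boxes, which begin 82 and 72 bases before the start, and 1 TGACG core that begins 55 bases before it. The Dusp1 window holds TGACGTCA, the full cAMP response element, from 124 bases before the start. It has 3 TGACG cores, 2 of which overlap inside that element. No TGANTCA or CCGGAAG was found in the 3 windows, and the Dusp6 window held none of the motifs searched. That window is placed on a start site 102 bases from the annotated start of the Dusp6 gene. Of 33469 rat promoter windows of this length, 1.64% held a CArG box, 1.83% TGACGTCA, 21.2% TGACG, 7.33% TGANTCA and 8.75% CCGGAAG. The CArG box was added to the search after these letters were seen, so its share of all windows is no test of its presence in the Dusp5 window. A looser pattern of CC, any 6 bases and GG, which every CArG box also matches, was in 71.5% of windows. It occurred 6 times in the Dusp5 window, 6 times in the Dusp1 window and not at all in the Dusp6 window. A match is a description of letters, and binding was not measured here.

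The scanner signal of a probe was set against blank spots, whose trimmed mean lay between 66.0 and 69.8 scanner units. A probe counted as detected above that mean plus 2 SD of the blanks, and by this rule Dusp6, Dusp5 and Dusp1 were detected on all 4 arrays. Between 66.7% and 72.4% of gene probes were detected per array. For comparisons, the blank mean was subtracted, 50 was added and the log2 values were quantile normalized, which keeps differences of dim probes small. Repeat spots of 2 positive controls, 24 each, gave a pooled within-array SD of 0.16 on the log2 scale, or 0.22 for a difference between 2 arrays. This spread covers the spot and not the culture or the array. The controls averaged 8898 to 15251 scanner units per array, while no member spot read above 1073. Their SD was taken on the scanner signal before background subtraction, offset and normalization. Where a difference is said to be within or beyond this spread, it is compared with these bright spots only.

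Dusp6, the cytoplasmic ERK phosphatase, lay 894 scanner units above the blank mean with IPTG and zinc, 583 with IPTG, 846 with zinc and 1007 with no addition. The lowest of the 4 signals was therefore that of IPTG alone, and the other 3 lay closer together. On the normalized log2 scale the levels were 9.77, 9.25, 9.95 and 10.10 in the same order of conditions. From the highest level down, no addition, zinc, and IPTG with zinc were each within 0.22 of the next. IPTG alone lay a further 0.52 lower than IPTG with zinc.

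**Figure D1:**
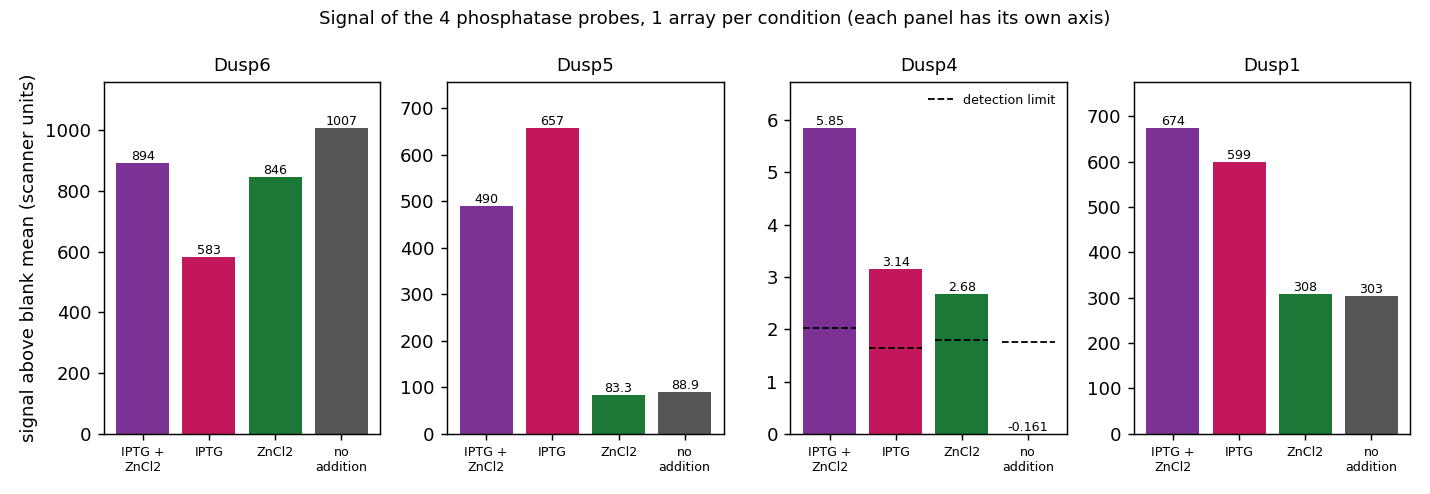
Signal above the mean of the blank spots, in scanner units on a linear axis, for each phosphatase probe, with 1 bar per array and a separate axis per gene. Dusp5 stands at 490 and 657 in the IPTG cultures against 83.3 and 88.9 without IPTG. The Dusp4 bars stand at 5.85 with IPTG and zinc, 3.14 with IPTG and 2.68 with zinc, within a few units of the detection limit (dashed). With no addition Dusp4 lay below the blank mean (-0.161), so its bar has no height.

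The IPTG difference of Dusp6 was -0.18 on the log2 scale with zinc and -0.85 without it. Their average was -0.52 ± 0.26 (SE of an additive limma model with intensity trend and robust prior, 2 pairs of arrays, adjusted p = 0.269). An SE of this model draws on a variance prior over all probes tested as well as on the 2 pairs of the probe itself. Only the difference without zinc was larger than the spread of repeat spots. The direction with zinc depended on scaling, at 0.04 with median scaling and 0.15 in the authors' deposited table. Without zinc the difference was below 0 in all 6 other ways of processing, between -0.89 and -0.42. In the authors' table the median of all probes was itself shifted by 0.29 with zinc and by 0.34 without. Relative to that median, Dusp6 was at -0.14 with zinc and -0.88 without.

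The local background of the Dusp6 spot differed between arrays. It was 57.3% of the spot signal with IPTG and zinc, 36.9% with IPTG, 89.2% with zinc and 45.4% with no addition. On the zinc array, 3 of 1025 probes of like signal (within 1.5-fold) had a higher share, and their median share was 37.3%. When the local background was subtracted instead of the blank mean, the IPTG difference of Dusp6 became 1.57 with zinc and stayed below 0 at -0.42 without. Its average was then 0.58 ± 0.46 (limma, 2 pairs, adjusted p = 0.482), so the direction of the Dusp6 average turned with the background used.

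**Figure D2:**
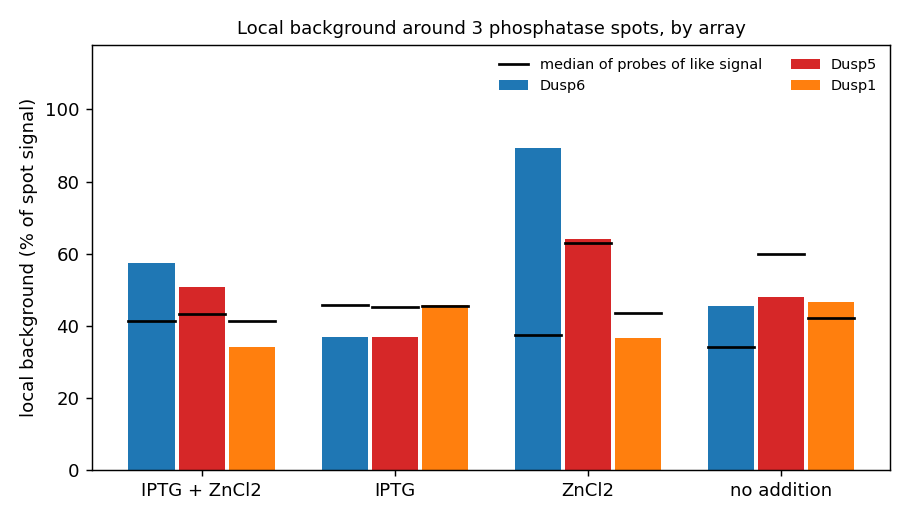
Local background as a percentage of the spot signal (vertical axis) for Dusp6, Dusp5 and Dusp1 on each array, with the median of probes of like signal on that array as a black line. The Dusp6 bar on the zinc array, at 89.2%, stands far above its line at 37.3%.

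Dusp5, the nuclear ERK phosphatase, lay 490 scanner units above the blank mean with IPTG and zinc, 657 with IPTG, 83.3 with zinc and 88.9 with no addition. Both IPTG arrays were above both arrays without IPTG, and the share of all probes that separate in this way is not given here. On the normalized log2 scale the levels were 8.97 with IPTG and zinc, 9.39 with IPTG, 7.09 with zinc and 7.14 with no addition. The order was therefore IPTG, IPTG with zinc, no addition and zinc, and the last pair differed by less than the spread of repeat spots.

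The IPTG difference of Dusp5 was 1.88 with zinc and 2.24 without, the 54th and 43rd highest of 13972 probes tested. It averaged 2.06 ± 0.24 on the log2 scale, higher in 2 of 2 pairs (limma with trend and robust prior, adjusted p = 0.00224). By the same test 611 probes, 4.37% of those tested, were called higher with IPTG and 5.39% lower. The criterion of at least 2-fold higher in both pairs was met by 1 of the 4 members, Dusp5, beside 192 probes or 1.37% of all tested. No member was 2-fold lower in both pairs, where 1.4% of all tested were. In the authors' deposited table, which adds no offset, Dusp5 had 226 and 371 units of normalized intensity with IPTG (with and without zinc), against 36.4 and 42.5 without IPTG. The ratios there were 6.21 with zinc and 8.73 without. Relative to that table's median, the log2 differences were 2.34 and 2.79.

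The limma call for Dusp5 rested on how the variance was modelled, since each probe has 1 residual degree of freedom. The adjusted p was 0.120 with a constant prior, 0.0877 after subtraction of the local median along the array and 1 with no filter on dim probes. The difference itself stayed between 1.60 and 2.63 with zinc and between 2.005 and 3.13 without in the 6 other ways of processing. Its local background was 50.8% and 36.8% of the signal with IPTG (with and without zinc), against 64.1% and 48.0% without IPTG.

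**Figure D3:**
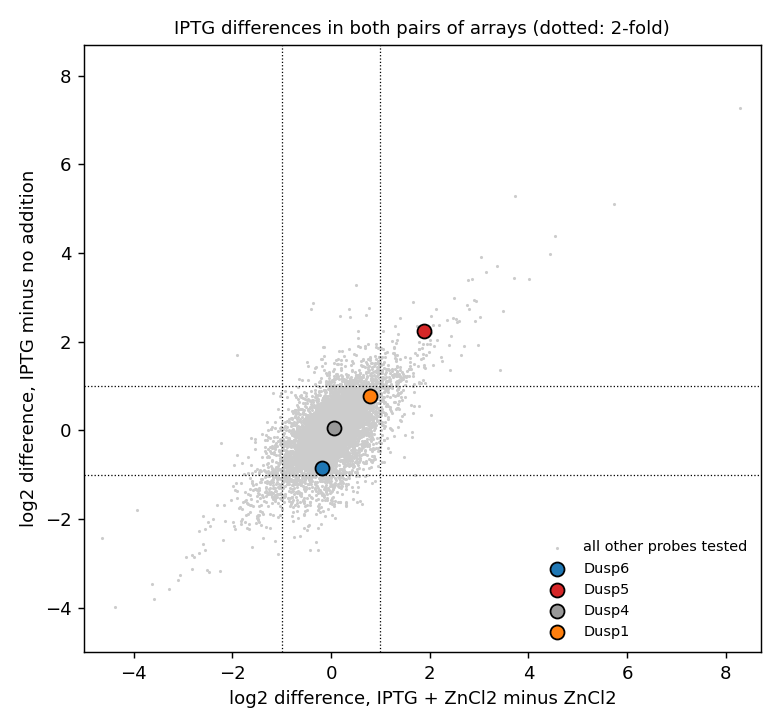
Log2 IPTG difference with zinc (horizontal axis) against that without zinc (vertical axis) for 13972 probes, with the 4 phosphatases marked and 2-fold limits dotted. Dusp5 lies beyond both limits at 1.88 and 2.24, Dusp1 lies inside them near the diagonal, Dusp6 is below 0 on both axes under this processing, and the Dusp4 point rests on an array where it was not detected.

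Dusp4, the nuclear phosphatase that can act on ERK and JNK, lay 5.85 scanner units above the blank mean with IPTG and zinc, 3.14 with IPTG, 2.68 with zinc and 0.16 units below it with no addition (-0.161). It was thus detected on 3 arrays and not well above background with no addition. The detection limits were 71.8, 67.6, 68.3 and 67.7 scanner units in this order, and the Dusp4 spot read 75.7, 69.1, 69.2 and 65.8. The array with no addition gives only a bound for Dusp4. Set against the lowest detected level on that array, Dusp4 with IPTG was 1.01-fold higher in normalized signal. The offset added before log2 was taken is far larger than the Dusp4 signals, so this ratio was bound to be small. It cannot show whether Dusp4 rose. A rise of Dusp4 with IPTG was therefore not established, and the size of any difference is unknown. The difference in the pair with zinc was 0.05 on the log2 scale. The same offset keeps this value small, so it does not show whether Dusp4 differed. In the authors' deposited table the ratio in that pair was 2.30, from listed intensities of 2.69 with IPTG and zinc and 1.17 with zinc, and no addition was not listed. All 4 members entered the IPTG test, but Dusp4 did so only by being detected on both IPTG arrays, and its value with no addition is a bound, so its test result is not used here.

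Dusp1, the phosphatase of p38 and JNK, lay 674 scanner units above the blank mean with IPTG and zinc, 599 with IPTG, 308 with zinc and 303 with no addition. Both IPTG arrays lay above both others, and the share of all probes that do so is not given here. Its normalized log2 levels were 9.39, 9.27, 8.60 and 8.49 in that order of conditions. Levels with and without zinc were within the spread of repeat spots of each other, and the step between IPTG with or without zinc and the arrays without IPTG was larger.

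The IPTG difference of Dusp1 had nearly the same size in both pairs, 0.79 with zinc and 0.78 without, on the log2 scale. Among all probes tested, 3.89% had a higher difference with zinc and 5.97% without. The average was 0.79 ± 0.24, higher in 2 of 2 pairs (limma with trend and robust prior, adjusted p = 0.0792), which missed the threshold of 0.05. The SE of 0.24 is not the spread of the 2 pairs but comes mostly from the variance prior, and it was 0.06 with a constant prior. In the authors' deposited table Dusp1 had 310 and 338 units with IPTG (with and without zinc), against 134 and 145 without IPTG. There the ratios of 2.31 and 2.33 passed 2-fold in both pairs and the limma test passed with an adjusted p of 0.0348. More probes passed in that table: 925 were 2-fold higher in both pairs, against 192 as reported. The limma test called 949 higher there, against 611. Relative to the shifted median of that table, the log2 differences were 0.92 with zinc and 0.89 without. With an adjusted p of 0.157, the local background gave an average of 0.81.

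**Figure D4:**
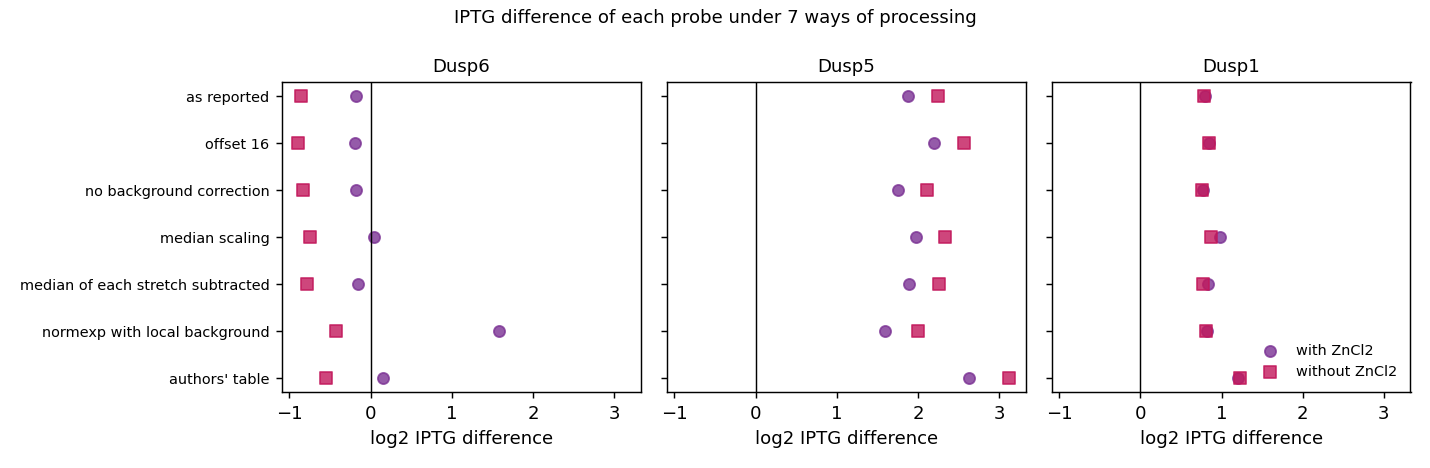
Log2 IPTG difference (horizontal axis) of Dusp6, Dusp5 and Dusp1 in the pair with zinc (circles) and without zinc (squares), under the reported processing and 6 others (rows). Dusp5 and Dusp1 stay above 0 in every row, whereas Dusp6 with zinc crosses 0 with median scaling and in the authors' table and reaches 1.57 with the local background.

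Ratios between members within an array do not depend on how arrays are scaled to each other. With background-subtracted signals, Dusp5 relative to Dusp6 was 5.58-fold higher with IPTG and zinc than with zinc, and 12.7-fold higher with IPTG than with no addition. Dusp5 relative to Dusp1 was 2.69-fold higher with IPTG in the pair with zinc and 3.74-fold higher without zinc. Dusp1 relative to Dusp6 was 2.08-fold and 3.41-fold higher in these pairs. With the blank mean as background the 3 detected phosphatases thus differed unequally with IPTG, in the same order in both pairs, although the 3 ratios share signals and have no replicate check. With the local background this order did not hold in the pair with zinc. There the log2 IPTG differences were 1.60 for Dusp5, 1.57 for Dusp6 and 0.82 for Dusp1, so the Dusp5 and Dusp6 differences were of like size and Dusp6 lay above Dusp1. Without zinc they were 2.005 for Dusp5, -0.42 for Dusp6 and 0.81 for Dusp1.

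With the blank mean as background, the zinc differences of the detected members were small beside the IPTG difference of Dusp5. Dusp5 was at -0.42 on the log2 scale with zinc in IPTG cells and at -0.06 in cells without IPTG. Dusp6 was at 0.52 in IPTG cells and at -0.15 without IPTG. Dusp1 was at 0.11 and 0.10. Dusp4 was at 0.07 in IPTG cells, while without IPTG only a bound exists. Against the lowest detected level with no addition, Dusp4 with zinc was 1.03-fold higher in normalized signal, and no rise was established. The added offset keeps this ratio and the value of 0.07 small, so neither shows whether Dusp4 differed with zinc. Among the members detected on all arrays, only the zinc differences of Dusp5 and Dusp6 in IPTG cells exceeded the spread of repeat spots under this processing.

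With the local background the zinc differences of Dusp6 were -0.04 in IPTG cells and -2.04 without IPTG, so the sign in IPTG cells turned and the value without IPTG passed 2-fold. The value without IPTG rests on the zinc array, where the local background was 89.2% of the Dusp6 signal. Those of Dusp1 became 0.34 in IPTG cells and 0.33 without, and those of Dusp5 -0.67 and -0.26. The Dusp1 and Dusp5 values and that of Dusp6 without IPTG were larger in size than the spread of repeat spots. That of Dusp6 in IPTG cells was not. The spread was not measured with this background.

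Across all probes, 8.50% had a lower zinc difference in IPTG cells than Dusp5, and 6.53% had a higher one than Dusp6. At least 2-fold higher with zinc in IPTG cells were 1.75% of all tested, and 0.98% were lower, while without IPTG these shares were 0.0659% and 0.0146%. With the blank mean as background no member reached 2-fold in either pair. In both pairs together, 2 of 13667 probes (0.0146%) were higher and 0 were lower. The limma test called 0 probes for zinc (356 at an unadjusted p under 0.05, or 194 with a constant prior), and the averages were 0.11 ± 0.24 for Dusp1 and -0.24 ± 0.24 for Dusp5 (SE, 2 pairs). For Dusp6 the average was 0.19 ± 0.26. The adjusted p rounds to 1 for these 3 members. The sign of the small zinc differences of Dusp1 turned in the authors' table, to -0.12 with IPTG and -0.11 without, where the median of all probes was at -0.24 and -0.20.

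Whether the IPTG difference depended on zinc was measured as the difference with zinc minus that without. This was 0.67 for Dusp6, -0.36 for Dusp5 and 0.01 for Dusp1 on the log2 scale, and none is given for Dusp4, which has only a bound with no addition. All 3 lay inside the range from -0.83 to 0.99 that held the central 95% of 14254 probes, and none reached the 4-fold limit, passed upward by 0.0912% and downward by 0.0982% of probes. With 1 array per condition this quantity could not be tested for a single gene. Dusp6 reached 1.997 with the local background, whose share on the zinc array is given above, and ranged from 0.64 to 0.79 in the other 5 ways of processing.

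Likeness of pattern was measured for Dusp5 alone, as the member at least 2-fold apart in both IPTG pairs. The measure was the distance over the 4 arrays between log2 values centred on each probe's own mean. The nearest of 14253 probes was ENSRNOG00000017163 at a distance of 0.11, with IPTG differences of 2.02 with zinc and 2.20 without. ENSRNOG00000018770 followed at 0.15, with 1.73 and 2.35, and the third lay at 0.16. These identifiers carry no gene name in the sources used here. Among the other members detected on all arrays, Dusp1 was the 513th nearest to Dusp5 and Dusp6 the 13118th.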

How the data were processed

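Total RNA was amplified to amino allyl RNA and coupled to Cy5, per the labels' protocols. Per the file headers, each deposited scanner file gives a median spot intensity and a local background intensity for 27456 spots at 635 nm, from 3 gains joined by least squares. Neither labels nor headers name the scanner, software or genome build. In the authors' deposited table the normalized intensity is, from its values, an exact line of the scanner signal reaching 0 at the blank mean, with a median near 25 per array.

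Here the mean of 1344 blank spots (5 percent left out at each end) was subtracted (floor 1), 50 added, log2 taken and 20166 gene probes quantile normalized, after 8 poor spots were left out. The local background, usual for such arrays, was made an alternative because its log2 value correlated with the signal at r = 0.94 to 0.95 over probes. For IPTG 13972 probes detected on both arrays of a level were tested, and 13667 for zinc. An additive limma model used all 4 arrays (lmFit, eBayes with trend and robust prior, two-sided, Benjamini-Hochberg, threshold 0.05). Its 1 residual degree of freedom holds the interaction. The SE and p-values rest on that and on a variance prior over all probes tested on these arrays, and not on replicate cultures. The fit was tested on simulated data. Named were all 4 members and, for Dusp5, the nearest probes. Members, lists and settings were chosen with earlier results of these data known. Gene lists of the pathway and cell type markers were fixed by symbol, but the gene table matched 0 of 20174 identifiers, so they were not analysed here. The CArG box was added after the promoter letters were seen. Alternatives were the background, offset, scaling, authors' table, dim-probe filter, position on the array, prior and thresholds. R 4.3.3 and limma 3.58.1 were used. The number of arrays limits precision.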

Additional observations from a re-analysis of the deposited data

How the results depend on the processing

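Beyond the 2 pairs of arrays of each factor, no pairing of replicates was possible, because each condition has 1 array and the labels give no replicate numbers. No replicate could be left out either. Of the 4 members, 1 reached 2-fold with IPTG in both pairs. This became 2 (Dusp5 and Dusp1) in the authors' table and with a fold limit of 1.5. Over all probes, those higher in both pairs went from 192 to 925 in that table and to 551 with that limit. The limma test called 1364 probes for IPTG (611 higher, 753 lower), but 2 with no filter on dim probes, 0 after subtraction of stretch medians, 0 with a constant prior (2962 at an unadjusted p under 0.05) and 2181 at an adjusted p threshold of 0.10. The authors' table turned the split to 949 higher and 339 lower. Median scaling gave 669 and 652. Those reaching 2-fold with IPTG in both pairs numbered 387, but 641 with offset 16, 1278 in the authors' table, 1146 with a fold limit of 1.5 and 110 with 3. For zinc there were 2, but 19 with the local background, 1 with median scaling, 25 in the authors' table, 6 with a fold limit of 1.5 and 0 with 3. The difference of effects passed 4-fold for 27 probes, but for 77 with the local background, 14 with no background correction, 85 with offset 16, 302 in the authors' table and 566 with a limit of 2. Average differences that changed sign were those of Dusp6 with the local background (0.58 for IPTG, -1.04 for zinc) and in the authors' table (-0.031 for zinc), and of Dusp1 for zinc in that table (-0.12). The moderated degrees of freedom of Dusp5 were 8.41 as reported, 3.34 with stretch medians subtracted, 2.40 with the constant prior and 1.83 with no filter. The causes were not otherwise tested.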
